A study of Caenorhabditis elegans with 2 samples.

Results

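Chromatin immunoprecipitation and sequencing (ChIP-seq) of the GATA transcription factor ELT-3 in whole Caenorhabditis elegans gave ranked lists of candidate regions. Those described here had their summit in an intron, outside the promoter windows defined below. The authors describe these lists as peaks together with background, so being listed does not by itself mark a region as bound. A region belonged to this set when its summit fell inside a protein-coding gene, in no annotated exon, and not from 1000 bp upstream to 200 bp downstream of a protein-coding transcript start in the WBcel235 (ce11) annotation. Of the 30000 regions of the list made from both replicates pooled, 6909 met these conditions (23.03%). The other regions had their summits in exons (10349), in promoter windows (7689) or between genes (5053). Applied to each replicate's own list of 30000 regions, the same rule gave 7063 intronic regions in replicate 1 and 7080 in replicate 2.

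All samples came from the strain OP75, which carries unc-119(ed3) III and the transgene wgIs75, a stable insertion that supplies ELT-3 fused at its C terminus to GFP and FLAG. The labels give 1 group of 2 biological replicates of mixed-sex larvae at the L2 stage, with chromatin sheared by sonication. How the worm cultures were kept apart is not stated. The lists were called by the authors against 1 control alignment. Input and untagged samples were not analysed here, so no background level beyond the authors' own was taken from control worms. Read totals are not stated either, so the depth behind each region is unknown. In whole worms, a strong signal in few cells and a weak signal in many cells cannot be told apart.

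ELT-3 is known as a regulator of genes of the hypodermis, the epidermal layer that secretes the worm's cuticle. GATA factors bind short DNA sites of the form WGATAR through zinc fingers, and TGATAA is one such site. Introns of worm genes can hold enhancers that act on the host gene or on a neighbour, and they can also hold separate genes such as those of small RNAs.

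The authors' peak caller gave each region a signal value relative to the control, on a scale not stated in the files, so it is used here only to rank and describe regions within a list. The 500 highest intronic regions by pooled signal value had values from 24.7 to 92.5, with a median of 27.4. They were compared with the 3615 intronic regions ranked below 15000, the median rank of the list, whose values ran from 12.6 to 16.4 with a median of 14.2. The 2794 regions between these sets were left out of the comparison. The limit at 500 was not a step in the data, since fdgt-2, wrk-1 and C32C4.3 just inside it had values of 24.74, 24.73 and 24.72, and mig-6, K07A12.8 and pif-1 just outside it had 24.72, 24.72 and 24.71.

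Stretches of 201 bases centred on 6 summits are shown because they are among the highest intronic regions and differ in whether they hold the site that GATA factors bind. They were not taken in order of rank alone, since the region at mua-3, with 4 TGATAA sites, ranked 45 among the intronic regions by pooled signal value. The 6 stretches therefore do not show how common the site is. TGATAA lay within 100 bp of the summit at 18.2% of the 500 highest intronic regions. Capitals mark TGATAA, or its reverse complement TTATCA, in the stretches at elt-3, egl-27, dkf-2 and mua-3, and the WGATAR site in the stretch at mom-1. The stretch at Y41G9A.17 held neither site and has no capitals. The letters are the plus strand of the RefSeq WBcel235 genome sequence, at chrX:13937371-13937571 for elt-3, chrII:6842831-6843031 for egl-27, chrV:16778729-16778929 for dkf-2, chrIII:10170342-10170542 for mua-3, chrX:6296474-6296674 for mom-1 and chrX:2997014-2997214 for Y41G9A.17.
elt-3: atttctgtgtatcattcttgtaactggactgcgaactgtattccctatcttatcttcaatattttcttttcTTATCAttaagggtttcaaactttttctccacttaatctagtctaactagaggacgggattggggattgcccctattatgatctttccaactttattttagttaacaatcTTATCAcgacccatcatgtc
egl-27: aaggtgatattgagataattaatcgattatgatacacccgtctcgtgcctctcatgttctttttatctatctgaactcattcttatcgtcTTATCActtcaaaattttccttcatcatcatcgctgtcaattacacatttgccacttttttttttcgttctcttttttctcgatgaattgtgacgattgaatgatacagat
dkf-2: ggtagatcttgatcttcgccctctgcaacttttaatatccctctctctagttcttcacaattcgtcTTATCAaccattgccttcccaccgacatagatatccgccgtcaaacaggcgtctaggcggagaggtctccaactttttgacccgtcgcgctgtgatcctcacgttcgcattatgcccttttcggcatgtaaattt
mua-3: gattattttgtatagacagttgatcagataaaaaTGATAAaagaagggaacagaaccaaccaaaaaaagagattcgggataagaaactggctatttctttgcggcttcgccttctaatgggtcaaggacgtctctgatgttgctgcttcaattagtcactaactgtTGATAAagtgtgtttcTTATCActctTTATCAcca
mom-1: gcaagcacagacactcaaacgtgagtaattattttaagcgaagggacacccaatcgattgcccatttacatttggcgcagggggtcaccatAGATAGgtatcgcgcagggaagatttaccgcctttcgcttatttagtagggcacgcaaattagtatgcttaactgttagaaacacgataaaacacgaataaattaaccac
Y41G9A.17: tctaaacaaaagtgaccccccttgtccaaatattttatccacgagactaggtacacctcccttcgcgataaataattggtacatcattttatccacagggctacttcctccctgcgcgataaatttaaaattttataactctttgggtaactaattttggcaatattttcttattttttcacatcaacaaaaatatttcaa

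The highest intronic region lay in intron 7 of 7 of mom-1, which encodes a Porcupine-type protein needed for the secretion of Wnt signals. Its pooled signal value was 92.5, and it ranked 1 in replicate 1, with a signal value of 48.8, and 3 in replicate 2, with 47.1. It was the one intronic region within the 10 highest ranks of each replicate's list. Its stretch held 1 WGATAR site and 0 TGATAA sites. The region at Y41G9A.17, in intron 6 of 6, had a pooled signal value of 52.3 and ranked 20 in replicate 1 and 318 in replicate 2.

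At elt-3 itself, 3 of the 500 highest regions lay in the same intron, intron 2 of 7, which is 3622 bp long. The highest of them, with 2 TGATAA sites, had a signal value of 54.3 in the pooled list and ranked 10877 in replicate 1 and 5 in replicate 2. The next had a value of 40.2 and ranks of 2364 in replicate 1 and 193 in replicate 2. The third had a value of 32.0 and ranks of 2132 in replicate 1 and 1396 in replicate 2. All 3 summits also lay in the first intron of another elt-3 transcript. In the same order, they were 1272, 1794 and 887 bp from the nearest protein-coding transcript start. Because wgIs75 is a transgene of elt-3, the strain can hold added copies of this sequence, and their part in these values was not tested. At unc-119, the gene mutated in the strain, the 1 intronic region lay in intron 1 of 4, had a value of 16.8 and ranked 13959 in the pooled list, with rank 1937 in replicate 1 and no region within 150 bp in replicate 2.

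The region at egl-27, in intron 10 of 12, had a value of 51.6, ranked 26 in replicate 1 and 1120 in replicate 2, and held 1 TGATAA site 10 bases before the summit (counted to the site's first base). Its summit also lay in the first intron of another egl-27 transcript, 527 bp from the nearest protein-coding transcript start. EGL-27 is a chromatin regulator with a GATA-type zinc finger. In dkf-2, which encodes a protein kinase D, the highest region lay in an intron of 15573 bp, 6556 bp from the nearest exon, with a value of 46.6 and ranks of 241 in replicate 1 and 69 in replicate 2. In mua-3, which encodes a transmembrane protein that attaches the hypodermis to the cuticle, 4 TGATAA sites lay within 100 bp of the summit. That mua-3 region had a pooled signal value of 34.2, ranked 99 in replicate 2 and ranked 26321 in replicate 1. Of the 500 highest regions, 73 held 1 TGATAA site, 13 held 2 and 5 held 3 or more, and those 5 lay in mua-3, pde-4, ZK250.2, slc-25A21 and H18N23.2, genes read off for the number of sites after the values were seen.

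The authors' list of regions that passed an irreproducible discovery rate (IDR) threshold included 9 intronic regions, 0.130% of the set (95% Wilson interval 0.0685 to 0.247%), against 0.11% of all pooled regions. They lay in mom-1, elt-3, Y41G9A.17, egl-27, prhg-1, pck-2, cutl-18, dkf-2 and tyr-2, the 9 highest intronic regions by pooled signal value. Among these genes, pck-2 encodes a phosphoenolpyruvate carboxykinase, tyr-2 a tyrosinase-like protein and cutl-18 a cuticlin-like protein. The region in tyr-2 lay in an intron of 54 bp, so its 350 bp span also covered exons. The spans at mom-1 and cutl-18 reached an exon too, with summits 81 and 146 bp from the nearest exon. Membership rests on the summit alone, so other regions of the set can also extend into exons. Only 4 intronic regions had a deposited q-value under 0.05, against 0.05% of all pooled regions, and they were the 4 at mom-1, elt-3, Y41G9A.17 and egl-27, each with a q-value of 0.0345. At the other 5 IDR regions the deposited q-value lay between 0.206 and 0.245.

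No excess of intronic regions was found at the top of the lists. The pooled 1000 highest regions held 205 intronic regions, 2.97% of the set, where the share over all pooled regions is 3.33% by construction. Among all other regions 795 were in the 1000 highest (3.44%), and the difference of −0.476 percentage points had a 95% Newcombe interval of −0.922 to 0.00806 points. In replicate 1's own list the difference was −0.360 points (−0.808 to 0.125). In replicate 2's own list it was −0.832 points (−1.26 to −0.367), an interval that left out 0. Counted over the 5000 highest pooled regions, the share was 15.8% for intronic regions and 16.9% for the others, a difference of −1.14 points (−2.11 to −0.137). These intervals count regions as units and hold no spread between worms.

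The 2 replicates ranked the 500 highest intronic regions differently. A region of replicate 1 lay within 150 bp of 456 of the 500 summits, with ranks from 1 to 29962 and a median of 2769.5. A region of replicate 2 lay within 150 bp of 433 summits, with ranks from 3 to 29552 and a median of 3359. The 1000 highest regions of a replicate held 128 of the 500 in replicate 1 and 98 in replicate 2. Of the 500, 116 were in replicate 1's 1000 highest alone, 86 in replicate 2's alone, 12 in both and 286 in neither. The pooled list holds the reads of both replicates, so these ranks describe the regions and are not a separate check of them.

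**Figure D1:**
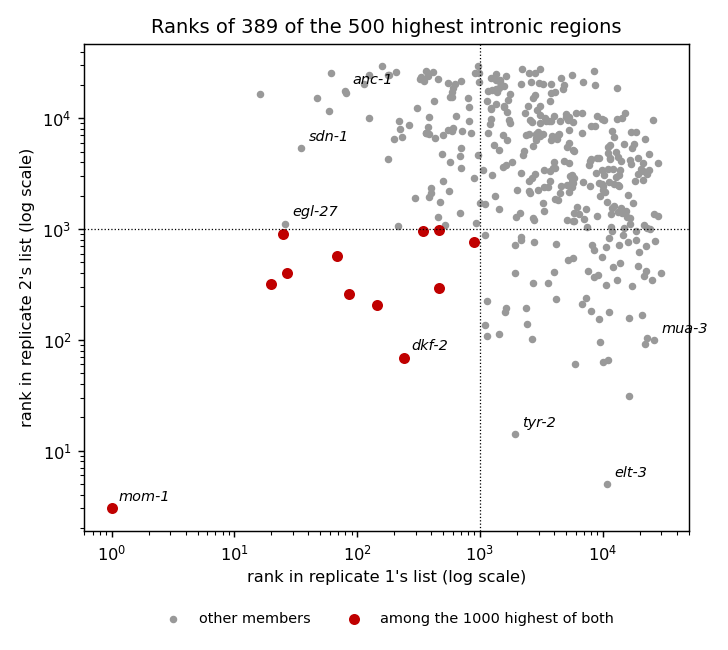
Rank of each of the 389 intronic regions of the 500 highest that had a summit within 150 bp in both replicates' lists, with the rank in replicate 1 on the x axis and in replicate 2 on the y axis, both on log scales. Dotted lines mark rank 1000; the 12 red points lie within it in both replicates, mom-1 stands alone at ranks 1 and 3, and elt-3, tyr-2 and mua-3 rank high in replicate 2 alone.

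The 12 regions in both replicates' 1000 highest were 2.40% of the 500 (1.38 to 4.15%), against 0.227% of all pooled regions, a contrast that choosing high regions of the pooled list fixes in direction. Of all 6909 intronic regions these 12 were 0.174% (0.0994 to 0.303%), an interval that holds the 0.227%. The same count was 28 for the 500 highest regions in exons, 19 for those between genes and 9 for those in promoter windows. A region of any rank in both replicates was found for 389 of the 500 (77.8%) and for 204 of the 3615 lower-ranked regions (5.64%), against 24% of all pooled regions. The direction of this contrast is fixed in the same way, so it is no measure of agreement between replicates. Besides mom-1, Y41G9A.17, prhg-1, cutl-18 and dkf-2, the 12 lay in mod-5, the serotonin transporter gene (43.9; ranks 69 and 573), K07A3.3 (42.8; 85 and 258), spe-15, a myosin gene (39.6; 461 and 296), flp-14, a neuropeptide gene (36.7; 467 and 976), nhr-14, a nuclear hormone receptor gene (36.5; 144 and 207), K09H9.8 (35.6; 344 and 969) and glr-7, a glutamate receptor gene (33.5; 890 and 756), with the pooled signal value and the ranks in replicates 1 and 2 in parentheses. Of these 12, 1 held a TGATAA site, the region in dkf-2. The wider form WGATAR lay at mod-5 (7 sites), nhr-14 (3) and mom-1, cutl-18, dkf-2 and glr-7 (1 each), and at none of the others. Over the 500 highest, 36% held WGATAR within 100 bp of the summit. The region in cutl-18 lay within 200 bp of T03F7.8, a small nucleolar RNA gene inside the intron. Such nested small RNA genes lay near 1 of the 500 highest (0.2%) and 17 of the 3615 lower-ranked regions (0.470%). The rule leaves out summits inside any annotated exon, those of non-coding genes too, so these counts cover only summits outside them.

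Others of the 20 highest regions differed widely between the replicates. In anc-1, which encodes a giant protein that anchors nuclei, the region held 2 TGATAA sites and had a pooled signal value of 40.4 and ranks of 80 in replicate 1 and 17571 in replicate 2. In sdn-1, the syndecan gene, the value was 38.6 and the ranks were 35 in replicate 1 and 5345 in replicate 2. In C16C8.18 the value was 38.2 and the order was the opposite, with ranks of 10912 in replicate 1 and 66 in replicate 2. In let-754, an adenylate kinase gene, the value was 38.8, with rank 862 in replicate 2 and no region within 150 bp in replicate 1. Each of these 4 regions was high in 1 replicate and far down or missing in the other.

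No difference in position along the gene passed between the 500 highest and the lower-ranked regions. In the 500 highest, 95 regions lay in the first intron (19.04% of those in an intron), and in the lower-ranked regions 758 did (21.02%). Between transcripts of their gene, in no intron of a covering transcript, lay 1 of the 500 highest and 13 of all intronic regions, which were left out of these shares. The difference was −1.98 percentage points (95% Newcombe interval −5.46 to 1.92) in the pooled list, −1.44 points (−4.97 to 2.51) in replicate 1's own list and −0.444 points (−4.07 to 3.57) in replicate 2's. Of all bases that the rule admits, 21.4% are in first introns. When an intron that is first in any covering transcript was counted, the shares were 28.5% in the 500 highest and 28.1% in the lower-ranked regions. The last intron held 14.4% of the 500 highest and 14.8% of the lower-ranked regions. The median summit lay 152 bp from the nearest exon in the 500 highest and 144 bp (order-statistic interval 136 to 155) in the lower-ranked regions, and 47.5% (43.2 to 50.5%) and 48.9% (47.4 to 50.5%) of the way along its intron.

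Medians and the share of long introns gave no common answer over the lists, but introns of 1000 to 1999 bp held fewer of the 500 highest in all 3. The median host intron was 709 bp (593 to 825) in the 500 highest and 743.5 bp (712 to 777) in the lower-ranked regions of the pooled list. In replicate 1's own list the 500 highest had shorter introns, with a median of 567 bp (498 to 676) against 789 bp (755 to 830). In replicate 2's own list the medians were 734 bp (631 to 836) and 765 bp (736 to 809), whose intervals overlap. Introns of at least 1000 bp held 39.9% of the 500 highest and 40.1% of the lower-ranked regions in the pooled list, a difference of −0.248 points (−4.75 to 4.39). For replicate 1 the shares were 35.1% and 41.7%, a difference of −6.62 points (−10.99 to −2.05) whose interval left out 0, and for replicate 2 they were 42.2% and 40.9%, a difference of 1.32 points (−3.22 to 5.97). Such long introns make up 46.8% of the bases that the rule admits, so neither set exceeded that share. Over 6 length classes, compared after seeing the data, introns of 1000 to 1999 bp held 12.02% of the 500 highest and 15.7% of the lower-ranked regions in the pooled list, a difference of −3.64 points (−6.49 to −0.293). The difference was −5.94 points (−8.65 to −2.70) in replicate 1's list and −4.56 points (−7.38 to −1.22) in replicate 2's. For introns of 500 to 999 bp it was −3.66 points (−7.26 to 0.341) in the pooled list, −4.85 points (−8.37 to −0.918) in replicate 1's and −3.25 points (−6.78 to 0.689) in replicate 2's, with an interval below 0 in replicate 1's alone. Introns of 100 to 499 bp held more of the 500 highest in the pooled list (4.06 points, 0.0551 to 8.36) and in replicate 1's (6.40 points, 2.31 to 10.8), and in replicate 2's the difference was 0.389 points (−3.47 to 4.59). Introns under 100 bp held more of them in replicate 1's list alone (16.03% against 10.95%, difference 5.08 points, 1.94 to 8.69), and introns of 5000 bp or more in replicate 2's alone (17% against 12.9%, difference 4.10 points, 0.856 to 7.79).

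**Figure D2:**
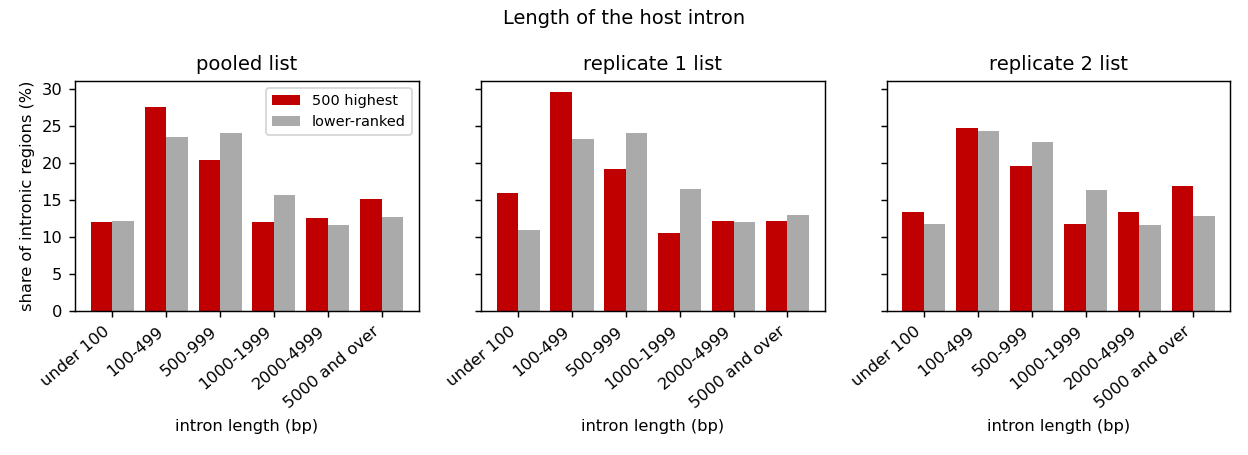
Share of intronic regions (%) by length class of the host intron (bp), for the 500 highest (red) and the lower-ranked regions (grey), in the pooled list and in each replicate's own list. Introns of 1000 to 1999 bp hold fewer of the 500 highest than of the lower-ranked regions in all 3 lists, with 12.02% against 15.7% in the pooled one, and introns under 100 bp hold 16.03% against 10.95% in replicate 1's.

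TGATAA, searched on both strands as TGATAA and TTATCA within 100 bp of the summit, was present at 18.2% of the 500 highest intronic regions and at 15.02% of the lower-ranked ones. The difference of 3.18 points had an interval of −0.179 to 6.97 points. In replicate 2's own list the shares were 19.4% and 15.96%, a difference of 3.44 points (−0.0117 to 7.31). In replicate 1's own list they were 13.8% and 15.1%, a difference of −1.30 points (−4.30 to 2.19). None of these 3 intervals left out 0, and the replicates differed in sign. The site was present at 16.4% of all pooled regions, at 17.2% of those in promoter windows and at 14.9% of all intronic regions, whatever their rank. Among the 500 highest pooled regions of each other class, it was present at 22.2% in promoter windows, 20.2% between genes and 13% in exons. Their lower-ranked regions held it at 17.1%, 17.3% and 16.8%, in the same order.

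TGATAA was most frequent at the top of replicate 2's list, in steps of rank chosen with the data in view. It lay at 17 of the 50 highest intronic regions of replicate 2 (34%, Wilson interval 22.4 to 47.8%), against 15.96% of its lower-ranked regions (14.8 to 17.2%). In replicate 1's list 8 of the 50 highest held it (16%, 8.34 to 28.5%), against 15.1% of the lower-ranked regions. In the pooled list 12 of the 50 highest held it (24%, 14.3 to 37.4%), and the share was 15.6% at ranks 251 to 500 and 14% at ranks 501 to 1000. Sites lay at all distances from the summit, with 6.2, 5.8, 6.6 and 4.8 sites per 100 of the 500 highest in successive steps of 25 bp, against 4.59, 4.15, 4.48 and 3.87 sites per 100 lower-ranked regions. WGATAR (W being A or T, R being A or G) lay at 36% of the 500 highest and 32.4% of the lower-ranked regions, a difference of 3.55 points (−0.816 to 8.11).

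**Figure D3:**
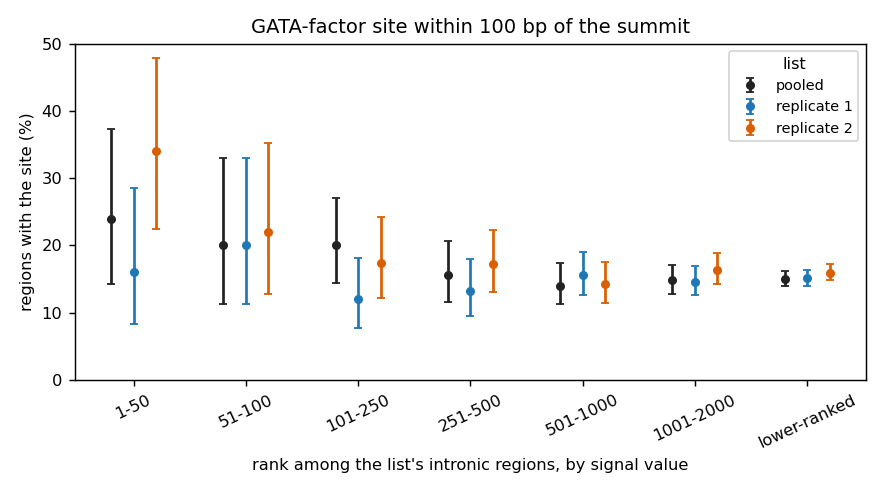
Share of intronic regions (%) with TGATAA within 100 bp of the summit, by rank among the intronic regions of the pooled list and of each replicate's own list; points are shares and bars are 95% Wilson intervals. In replicate 2's list 34% of the 50 highest hold the site against 15.96% of the lower-ranked regions, and in replicate 1's list 16% against 15.1%.

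Base composition differed between the sets in every list. The 201 bases around the summit had a median GC content of 40.3% (39.3 to 40.8%) in the 500 highest and 36.3% (36.3 to 36.8%) in the lower-ranked regions of the pooled list. The medians were 39.8% and 36.3% in replicate 1's list and 39.3% and 35.8% in replicate 2's, with intervals that did not overlap in either. Bases that RefSeq masks as repeats or low complexity made up a median of 22.4% (20.4 to 23.9%) of the stretch in the 500 highest and 33.3% (32.3 to 34.3%) in the lower-ranked regions. The same direction in GC content was found outside introns, with medians of 43.5% and 40.8% for regions in exons, 41.8% and 37.8% in promoter windows and 39.3% and 36.3% between genes. TGATAA is rich in A and T. Among pooled regions with a GC content of 35 to 45% alone, a choice made after seeing the data, its share was higher in the 500 highest by 6.20 points (1.65 to 11.5). This comparison was not made in each replicate's own list. The part of base composition and mappability in the signal values was not tested.

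Chromosome I held an excess of the 500 highest intronic regions, a result added after seeing the data. It carried 163 of the 500 (32.6%) against 683 of 3615 lower-ranked regions (18.9%), and 18.5% of the bases that the rule admits. The difference was 13.7 points (9.53 to 18.1) in the pooled list, 11.1 points (7.02 to 15.5) in replicate 1's own list and 10.6 points (6.50 to 14.9) in replicate 2's. Most of it lay in the first 5 Mb of the chromosome, which held 19.8% of the 500 highest and 7.99% of the lower-ranked regions, a difference of 11.8 points (8.42 to 15.6). Beyond 5 Mb the shares were 12.8% and 10.9%, a difference of 1.90 points (−0.950 to 5.26), and in replicate 2's list that interval left out 0 (0.238 to 6.76). Regions outside introns had the same direction, with 31.8% and 16.5% on chromosome I in exons, 30.6% and 15.2% in promoter windows and 21.4% and 14.7% between genes. Copy number and mappability along this chromosome were not tested.

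Chromosome X held 15.4% of the 500 highest and 17.7% of the lower-ranked regions, a difference of −2.30 points (−5.47 to 1.33). In replicate 1's list the difference was 3.04 points (−0.421 to 6.91), and in replicate 2's −0.0203 points (−3.42 to 3.81). Shares over chromosomes add to the whole, so an excess on chromosome I lowers the others. Among regions off chromosome I alone, a comparison added after seeing the data, X held 22.8% of the highest and 21.8% of the lower-ranked regions in the pooled list (difference 1.02 points, −3.41 to 6.01). In replicate 1's list this difference was 7.70 points (2.97 to 12.9), an interval that left out 0, and in replicate 2's it was 3.42 points (−1.18 to 8.49). None of chromosomes II to V had an interval off 0 in the pooled list once chromosome I was left out, and in replicate 1's list II and IV did, at −5.17 and −5.56 points.

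**Figure D4:**
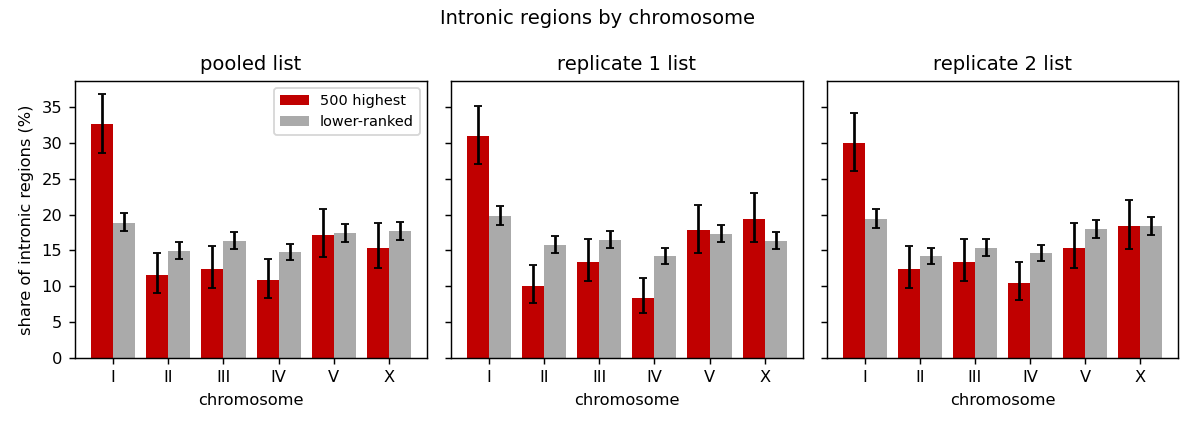
Share of intronic regions (%) on each chromosome for the 500 highest (red) and the lower-ranked regions (grey), in the pooled list and in each replicate's own list, with 95% Wilson intervals as bars. Chromosome I stands above the others in the 500 highest of all 3 lists, at 32.6%, 31% and 30%.

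**Figure D5:**
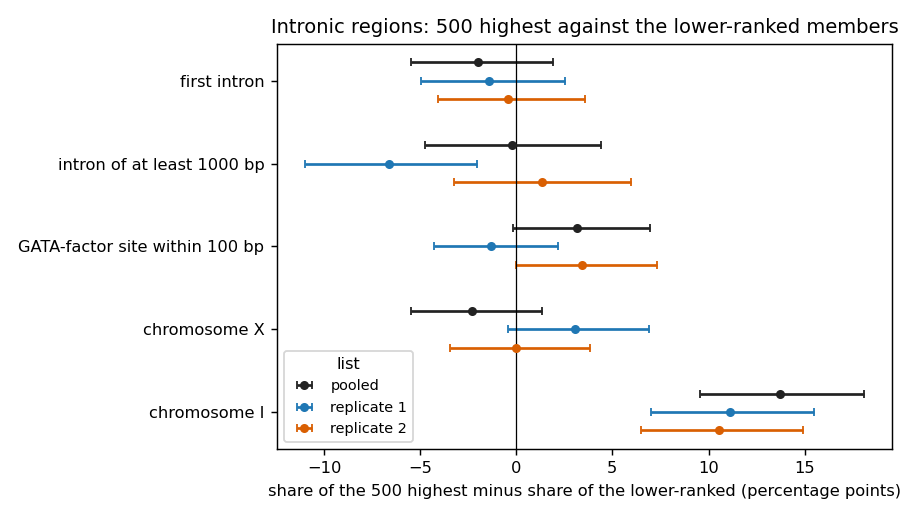
Share of the 500 highest minus share of the lower-ranked intronic regions, in percentage points with 95% Newcombe intervals, for 5 properties and 3 lists. Chromosome I has intervals above 0 in all 3 lists, from 9.53 to 18.1 points in the pooled one, introns of at least 1000 bp have an interval below 0 in replicate 1's list alone, and the other intervals hold 0.

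Leaving out the 13 regions in no intron, the other 6896 had 4367 host genes, 21.9% of the 19973 protein-coding genes of the annotation. Of the 500 highest, 499 had a host intron, in 451 genes, so 10.3% of genes with any intronic region hosted a high one, and this is the share against which the gene groups are read. Of these hosts 413 held 1 of them, 29 held 2 and 9 held 3 or more. The lower-ranked regions had 2726 host genes, and 179 genes hosted both, which is 39.7% of the first list and 6.57% of the second. Host genes had a median length of 5946 bp (5320 to 6436) for the 500 highest and 5107 bp (4890 to 5274) for the lower-ranked regions.

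The 9 genes with 3 or more high regions were 6343 to 40820 bp long, each above the median host gene. The Toll receptor gene tol-1 held 4 of the 500 highest, in 4 introns, with pooled signal values from 24.8 to 37.7. The genes elt-3, dkf-2, lrp-1, sue-1, C54G6.3, sos-1, ctn-1 and unc-13 held 3 each. In sos-1, which encodes an activator of Ras, the 3 lay in 1 intron of 13600 bp, with values of 32.9, 30.2 and 28.5. In lrp-1, which encodes a megalin-like receptor of the hypodermis needed for moulting, they lay in introns 1, 15 and 22, with values of 31.9, 33.5 and 38.05. In unc-13, a synaptic vesicle priming gene, they lay in introns 2, 19 and 28, and 2 of those introns were 53 and 56 bp long. Regions that share a gene or an intron are not separate observations, and the 499 with a host intron lay in 487 introns.

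In the 4 groups tied to the hypodermis or to GATA factors, the share of hosts with a high region was above the 10.3% of all host genes. Counts were 2 to 7 genes a group, with no test. A share above 10.3% was not particular to these groups. Of the other lists, only that of axon guidance and neural adhesion genes fell below it when host genes were counted. Of 38 epidermal junction, attachment and matrix genes, 25 hosted an intronic region and 7 a region among the 500 highest (28.0% of hosts, against 10.3% of all host genes), namely lrp-1, mua-3, zmp-2, cle-1, hmr-1, unc-52 and vab-10. After lrp-1 and mua-3, the next were zmp-2, a matrix metalloprotease gene (26.1), and cle-1, a collagen XVIII gene (25.96), each with a region in replicate 2 and none within 150 bp in replicate 1. Of 21 hypodermal, seam and heterochronic regulators, 15 hosted an intronic region and 3 a high one (20% of hosts), in elt-3, pal-1 (28.1), a Caudal-type homeobox gene, and daf-12 (27.4), the receptor of dafachronic acids. Of 12 genes of GATA factors and egl-27, 6 hosted an intronic region and 2 a high one (33.3% of hosts), elt-3 and egl-27. The gene elt-3 is counted in this group and among the regulators. Of 176 cuticle collagen genes, which are short and have few introns, 10 hosted an intronic region and 2 a high one (20% of hosts), col-52 (27.9) and col-159 (26.3). Counted by region, 10 of 95 were high in the epidermal genes and 5 of 45 in the regulators. The counts were 4 of 12 in the GATA group and 2 of 16 in the collagens, against 499 of 6896 over all host genes. Of the 4 in the GATA group, 3 lay in 1 intron of elt-3, the gene of the transgene, and the other in egl-27. In the other lists the counts were 6 of 33 (Wnt), 7 of 58 (Hedgehog and Patched), 11 of 106 (neurotransmission) and 9 of 120 (nuclear hormone receptors). Body wall muscle (2 of 43) and axon guidance (3 of 99) fell below the share over all host genes.

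Among signalling genes, the Wnt and Hedgehog groups also had shares above that of all host genes, with 5 genes each, and nuclear hormone receptors had a share near it. The median over host genes of the best pooled signal value was lower in the Wnt group (15.8) than over all host genes (17.1). It was 18.6 in the Hedgehog group and 17.7 for the nuclear hormone receptors. Of 31 Wnt pathway genes, 17 hosted an intronic region and 5 a high one (29.4% of hosts). After mom-1 these were mig-1 (31.3) and lin-17 (30.7), which encode Frizzled receptors, pop-1 (27.6), the TCF transcription factor, and cwn-2, a Wnt ligand gene. The region in lin-17 ranked 113 in replicate 1 and had no region within 150 bp in replicate 2, and that in mig-1 ranked 1626 in replicate 1 and 3756 in replicate 2. Of 86 Hedgehog-related and Patched-related genes, 27 hosted an intronic region and 5 a high one (18.5% of hosts), in grl-15 (31.9), grl-2 (31.4), ptr-23 (30.8), grd-16 (26.5) and ptc-3. Of 273 nuclear hormone receptor genes, 73 hosted an intronic region and 8 a high one (11.0% of hosts), led by nhr-14 and nhr-3 (33.2).

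Neural and muscle genes were counted beside these groups. Of 65 genes of neurotransmission, channels and the synapse, 48 hosted an intronic region and 8 a high one (16.7% of hosts), among them mod-5, unc-13, unc-103 (29.5), a potassium channel gene, and unc-80 (28.9), which acts with a sodium leak channel. Of 41 axon guidance and neural adhesion genes, 32 hosted an intronic region and 3 a high one (9.38% of hosts), in unc-40 (30.5), the netrin receptor gene, nrx-1 (29.5), the neurexin gene, and hmr-1 (25.6), the cadherin gene, which is also among the epidermal genes above. Of 36 body wall muscle genes, 17 hosted an intronic region and 2 a high one (11.8% of hosts), in zyx-1 (25.8), the zyxin gene, and tln-1 (25.1), the talin gene. Over all 10 lists, 42 of 258 host genes had a high region (16.3%). Longer genes have more intronic bases in which a region can lie, and the part of gene length in these counts was not tested.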

How the data were processed

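ChIP-seq of ELT-3 was given by the authors as lists of regions in the ce11 build. Per the file listing deposited with the series, 1 list came from each replicate and 1 from both pooled, called against 1 control alignment. The authors' signal value is a score relative to the control, and their q-value is deposited as −log10 of q. For the aligner, the caller and the threshold of the IDR list, names and settings were not stated. The ce10 lists were not used.

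Summits were assigned to genes, exons and introns with the Ensembl release 115 annotation of WBcel235, taking the covering transcript with the longest coding sequence, and, where several genes cover a summit, the shortest intron. Sites and GC content were read from the RefSeq genome sequence. Shares were compared by Newcombe intervals and described by Wilson intervals at 95%, and medians by order-statistic intervals. A difference passed where its interval left out 0, and no p-value was computed. Intervals cover the counting of regions alone. The interval function was checked on simulated counts. The classes (intronic, exon, promoter window or intergenic) of a sample of pooled regions were checked against a second, direct reading of the annotation. Python 3.11.15, numpy 2.4.6, pandas 2.3.3, scipy 1.17.1, statsmodels 0.14.6 and matplotlib 3.10.9 were used.

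The regions, the tests and the gene lists were chosen with earlier results of these data known. Genes named are hosts of the 20 highest regions, of regions in both replicates' 1000 highest, of 3 or more of the 500 highest, up to 4 per gene list by signal value, the 3 regions on each side of the limit at 500, elt-3 and unc-119; the 10 lists also name their other members with a high region. Any further gene was named once its values were known. The alternatives changed the number of regions taken as highest, the set below, the promoter window, the ranking, the motif and its distance, the intron's definition, the replicate and the chromosomes.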

Additional observations from a re-analysis of the deposited data

How the results depend on the processing

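Of 80 alternative values, 55 kept both the direction and the side of the threshold (for counts and shares with no test, their size within the limits set). The excess on chromosome I held in all 10 of its alternatives, at 10.6 to 14.7 points. The first-intron difference turned to 0.337 points when any covering transcript was counted. The difference for long introns, −0.248 points, turned to 3.07 with the 250 highest, 2.75 with a promoter window of 500 to 100 bp, 0.239 when ranked by −log10 q, 4.28 with 1 region per host gene and 3.40 with introns of at least 2000 bp, each with an interval that held 0. It ran from −6.62 to 1.32 when 1 replicate was left out. The TGATAA difference, 3.18 points, passed with the 250 highest (5.78), the shorter promoter window (3.38), the ranking by −log10 q (3.51), sites within 50 bp (3.28) and a GC content of 35 to 45% alone (6.20). It was 1.08 with the 1000 highest, 1.45 over the whole region and 1.78 without chromosome I, each with an interval that held 0, and ran from −1.30 to 3.44 when 1 replicate was left out. The chromosome X difference was 0.172 points with the 500 highest taken anew without chromosome I and ran from −0.0203 to 3.04 when 1 replicate was left out. The share in both replicates' highest regions, 2.40%, was 7.20% with their 2000 highest, 1.20% with summits within 50 bp, 12% for the 100 highest intronic regions, and 19.6 to 25.6% when 1 replicate was required. Intronic regions against all others gave −1.14 points for the 5000 highest, −0.636 with the shorter promoter window and −0.832 to −0.360 when 1 replicate was left out. With the 1000 highest regions, 73 genes of the lists had a high region in place of 42. The cause of these changes was not tested.

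Read totals were not given, and a replicate's list stops at 30000 regions, whatever its depth. With 2 replicates and no control worms analysed, region-level intervals hold no spread between cultures.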
